A study of Mus musculus with 22 samples.

Results

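The genes for the proteins of the cytosolic ribosome were followed in mouse sensory ganglia and in cultured sensory neurons. Members were all protein-coding genes whose mouse symbol is Rpl or Rps followed by a number (with a, x or l where present), by p0, p1 or p2, or by a. Of the 55487 genes in each count table, 83 had such a symbol and 80 of them were protein-coding, 49 for the large subunit (Rpl) and 31 for the small subunit (Rps). The remaining 3 (Rpl32l, Rpl6l and Rps4l) are annotated as pseudogenes and were left out. The rule reads the symbol and the biotype alone.

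RNA was sequenced from 22 samples in 8 groups. Dorsal root ganglia, which hold the cell bodies of sensory neurons, were taken at the T10 to L5 levels after 5 days of treatment with vehicle or with imiquimod (IMQ), a Toll-like receptor agonist. The mice were wild type (WT) or carried the label Postn knock out (KO), Postn being the gene of the secreted protein periostin. These gave 3 WT vehicle, 2 WT IMQ, 3 KO vehicle and 2 KO IMQ libraries. Cultured ganglion neurons, labelled as primary cells, were WT or KO and were kept for 72 h with or without recombinant periostin (rPOSTN), with 3 libraries in each of the 4 groups. The labels give neither the age nor the sex of the mice, nor the kind of Postn allele, the dose, or whether replicates came from separate animals or cultures, so p-values measure only the spread between these libraries, which may be technical. The ganglia, the WT cultures and the KO cultures were deposited as separate tables, so levels in ganglia and in culture, and in WT and KO cultures, are set side by side without a test.

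Each ribosome is built from ribosomal RNA and one copy of most of these proteins, and cells therefore make the proteins in matched amounts. Their mRNAs are short and abundant, and many begin with a run of pyrimidines, the 5′ terminal oligopyrimidine (TOP) tract, through which mTOR signalling controls their translation. In sensory neurons, ribosomes also act in axons, far from the cell body, and some ribosomal protein mRNAs are carried there.

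Library totals ran from 16.7 to 24.1 M (mega) counts per library. Postn, the targeted gene, was at 20.9 to 49.7 counts per M (CPM) in the 5 WT ganglion libraries and at 3.39 to 7.43 CPM in the 5 labelled KO. In culture it was at 678 to 988 CPM in WT and at 71.8 to 111 CPM in 4 of the 6 libraries labelled KO, but at 409 CPM in KO control 3 and 456 CPM in KO rPOSTN 3. Those 2 libraries stand apart from the others of their label, so the correlation of members, the rPOSTN and length-class medians and the means and fold changes of named members in KO cultures are given with and without them. Other KO culture values include them. Summed neuronal markers (17 of 17 passed the filter on low counts in every comparison) were between 19390 and 22990 CPM in ganglia and between 7783 and 10100 CPM in cultures. The cultures also had markers of satellite glia (2544 to 3405 CPM), myelinating Schwann cells (1494 to 2502 CPM) and fibroblasts (601.9 to 1499 CPM). Cycling cell markers summed to 67.8 to 214.3 CPM in cultures and 7.6 to 27.3 CPM in ganglia.

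To show the region where transcripts begin, RefSeq promoter windows (build GRCm38.p6, 250 bases before to 50 after the annotated start) were read. The submitters name GRCm39, so the coordinates below do not apply to their build. Of the 80 members, 60 had a window, and these had 72 windows in all. A C followed by at least 6 C or T lay within 10 bases of the start in 34.7% of member windows and in 9.01% of all 32851 windows. With 20 bases on each side the shares were 48.6% and 18.7%. The letters from 20 bases before to 10 after the start follow for 5 members with such a tract, in capitals. Rps27 and Rpl38 were among the members with the lowest values in KO IMQ ganglia against vehicle, Rpl35 was among the lowest in culture against ganglia, Rps6 is the small-subunit protein phosphorylated downstream of mTOR, and Rplp2 is a stalk protein.
Rps27 (chr3:90213639-90213668, minus strand): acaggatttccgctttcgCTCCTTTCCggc
Rpl38 (chr11:114668560-114668589, plus strand): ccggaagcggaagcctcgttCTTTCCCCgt
Rpl35 (chr2:39005122-39005151, minus strand): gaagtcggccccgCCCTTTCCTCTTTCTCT
Rps6 (chr4:86857358-86857387, minus strand): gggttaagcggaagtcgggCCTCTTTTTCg
Rplp2 (chr7:141447631-141447660, plus strand): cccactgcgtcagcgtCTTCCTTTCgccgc
The same stretch had no such tract in Rplp0, Rpsa and Rpl26, which are shown because their values are described below. Starts are as annotated and were not measured, so these stretches do not show that the mRNAs lack a tract. In Rpl26 the capitals mark TCTCGCG.
Rplp0 (chr5:115559447-115559476, plus strand): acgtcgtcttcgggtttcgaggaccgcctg
Rpsa (chr9:120127746-120127775, plus strand): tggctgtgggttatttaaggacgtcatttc
Rpl26 (chr11:68901546-68901575, plus strand): gagaTCTCGCGgcaacttacagaaccggaa

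In all, 16 searches were made in these windows: 9 motifs on either strand, the start pattern at 5 offsets and the tract with 2 flanks. Those of larger share in members included CCGGAAG (36.1% of member windows, 8.86% of all), TCTCGCG (19.4% and 2.56%), its palindromic longer form (9.72% and 0.466%), GGGCGG (58.3% and 35.7%), AAGATGG (15.3% and 6.34%), a longer form of it (5.56% and 0.852%), and CACGTG (11.1% and 7.15%). TATAAA (8.33% and 13.6%) and CCAAT (30.6% and 37.4%) had a smaller share in members. A C exactly at the start followed by 4 C or T stood in 18.1% of member windows and 2.51% of all, and starting 2 bases before to 2 bases after it the member share ran from 6.94% to 18.1%. The motif list and the windows shown were chosen with values in view, and the shares are descriptions.

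Of the 80 members, 77 passed the filter on low counts in ganglia, 76 in WT cultures and 77 in KO cultures. Rpl10l, the autosomal copy of X-linked Rpl10 known from testis, had 0 counts in all 22 libraries. Rpl39l had at most 6 counts in a library, and Rpl3l, the muscle form of Rpl3, had 1 to 12. Rpl24 had 0 to 13 counts. Among the 76 members that passed in all 3 tables, the mean level in ganglia ran from 1.501 CPM for Rps10 to 543.8 CPM for Rpl3, with a median of 221.7 CPM, and 73 of them were at 50 CPM or more. Rpl24, Rpl13a and Rps10 share 47.0%, 35.4% and 20.6% of their exon length with other genes on the same strand, and their low counts are therefore uncertain as levels. Per kilobase of transcript over all libraries, the highest members were Rplp1 (680.4 CPM per kb), an acidic stalk protein that recruits elongation factors, Rpl10 (613.7 CPM per kb), which is added late in the assembly of the large subunit, and Rps2 (606.3 CPM per kb). This order pools ganglia and cultures, differs in ganglia alone, and rests on the annotated transcript length taken. Group means of Rps2 were 300.3 to 356.9 CPM per kb in ganglia and 802.9 to 887.4 CPM per kb in cultures. Those of Rps15 in ganglia were 560.5 to 746.1 CPM per kb. The lowest above 0 were Rpl39l (0.0679 CPM per kb) and Rpl3l (0.189 CPM per kb), and Rpl10l was at 0.

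The members made up 1.26% to 2.70% of the counts of a ganglion library and 1.61% to 2.03% of a culture library. In WT vehicle ganglia the share was 2.50%, 1.48% and 1.44%, and in WT IMQ ganglia 1.85% and 1.63%. In KO vehicle ganglia it was 2.70%, 1.29% and 1.82%, and in KO IMQ ganglia 1.69% and 1.26%. Wilson 95% intervals were at most 0.0079 percentage points to either side, so the spread between replicates was far wider than counting error (intervals cover counting error only). WT vehicle 1 and KO vehicle 1 were highest, and the IMQ and vehicle groups overlapped in both genotypes. In WT cultures the share was 2.03%, 1.97% and 1.85% in control and 1.73%, 1.70% and 1.87% with rPOSTN. In KO cultures it was 1.81%, 1.78% and 1.78% in control and 1.93%, 1.72% and 1.61% with rPOSTN, the last group lying on both sides of its control.

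**Figure D1:**
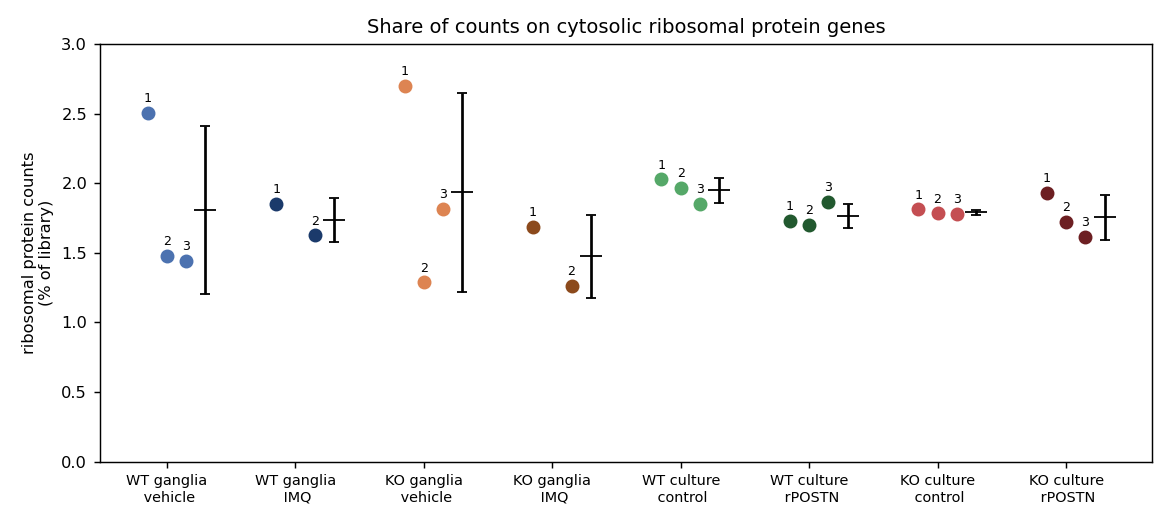
Percent of each library's counts on the 80 ribosomal protein genes (y axis) in the 8 groups (x axis). Points are libraries with their replicate number, and the black line with bars is the group mean ± SD (n = 3, or 2 for the IMQ groups). WT vehicle 1 (2.50%) and KO vehicle 1 (2.70%) lie above all other libraries.

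The members moved together from library to library. The median correlation between pairs of members over libraries was 0.986 in ganglia (10 libraries), 0.864 in WT cultures (6) and 0.681 in KO cultures (6), values that share library depth and scaling. Of the 77 members tested in ganglia, 71 had their highest level in KO vehicle 1 and 59 their lowest in KO IMQ 2. In WT cultures 59 of 76 were highest in control 1 and 51 were lowest in rPOSTN 2. In KO cultures 51 of 77 were highest in rPOSTN 1 and 64 were lowest in rPOSTN 3, libraries of the same group. KO rPOSTN 3 and KO control 3 had fibroblast marker sums of 1499 and 1233 CPM (other KO cultures 601.9 to 725.6 CPM). Their cycling cell marker sums were 214.3 and 178.2 CPM (other KO cultures 67.8 to 91.3 CPM). The part of either in the ribosomal protein level was not tested. The root mean square deviation of a member from its own mean was 0.403 log2 units in ganglia, and 0.129 after the median of the members in each library was taken off. In WT cultures it went from 0.136 to 0.0723, and in KO cultures from 0.133 to 0.103. Without KO control 3 and KO rPOSTN 3, the median correlation over the other 4 KO culture libraries was 0.437 and the deviation went from 0.110 to 0.0994.

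**Figure D2:**
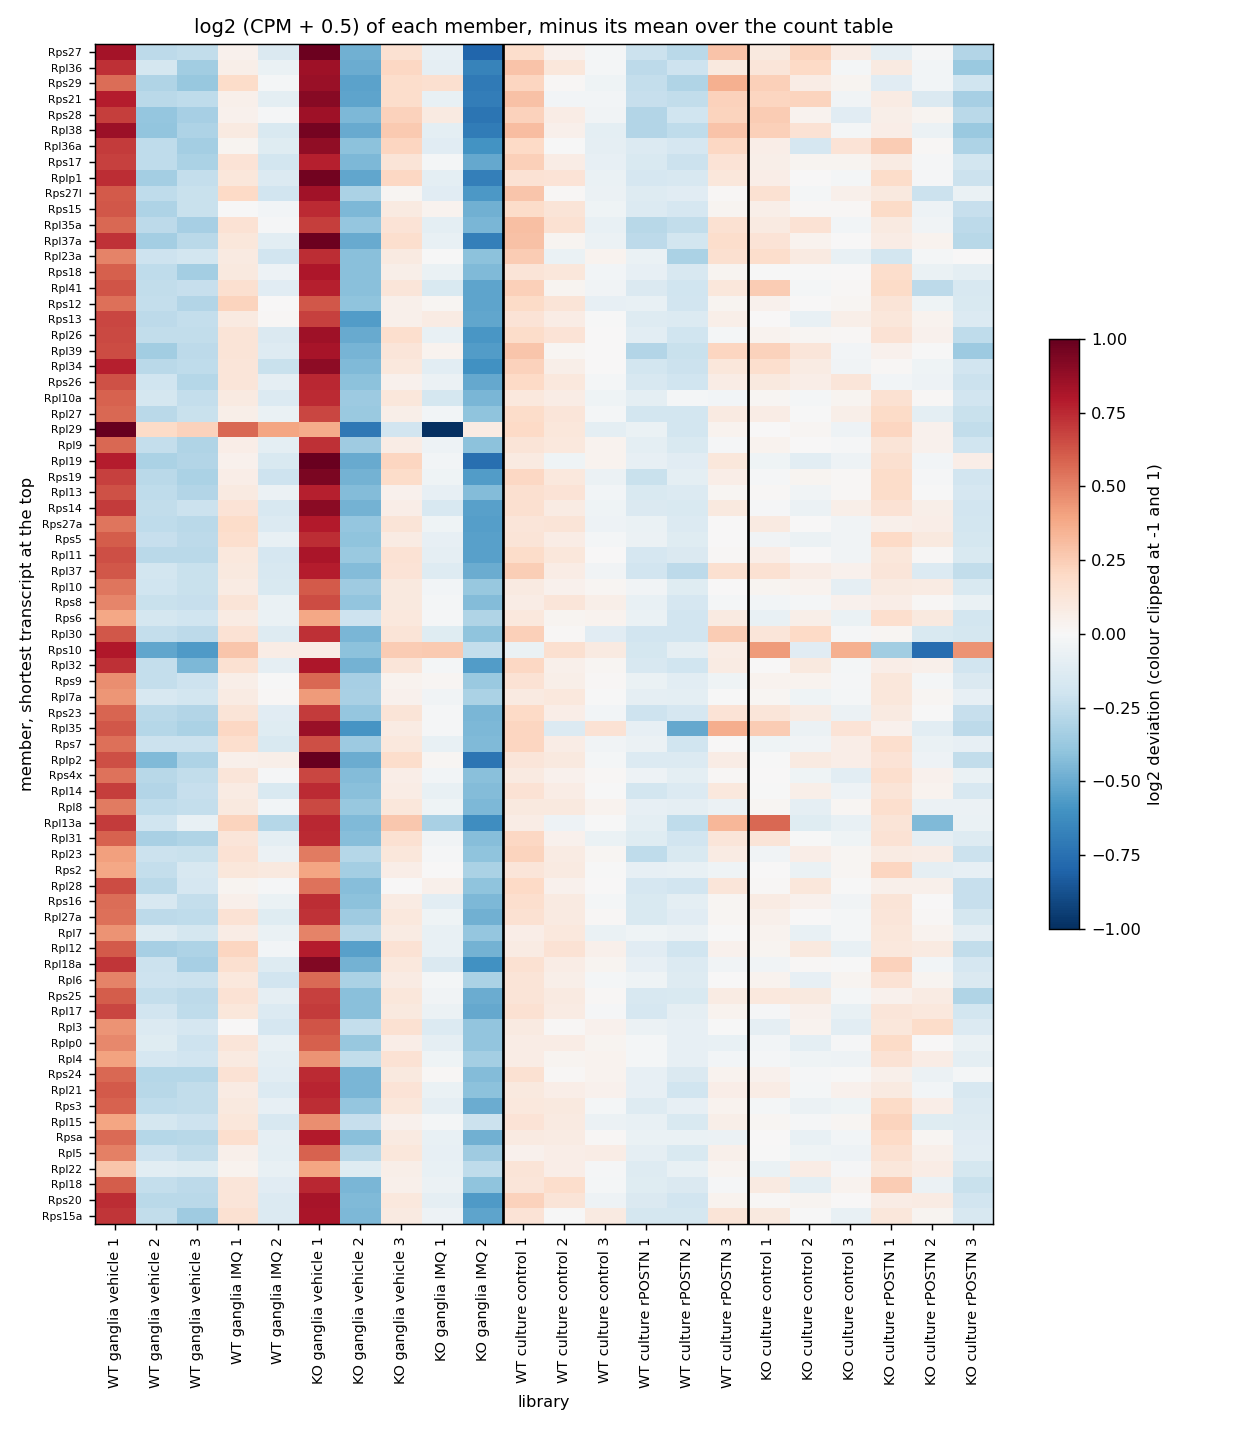
log2 (CPM + 0.5) of 75 of the 76 members tested in all 3 tables (rows, shortest transcript at the top) in the 22 libraries (columns), minus the member's mean over its count table, with vertical lines between tables. Whole columns are red in KO vehicle 1 and WT vehicle 1 and blue in KO IMQ 2, and Rpl29 departs from its column in KO IMQ 1.

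The order of the libraries by this shared level was close to their order by the trend on transcript length over all other genes. In each library the slope of log2 CPM deviation on log2 length of the principal transcript was fitted over genes other than members, so a negative slope means that short transcripts were relatively high. Slopes ran from −0.191 in KO vehicle 1 and −0.156 in WT vehicle 1 to 0.116 in KO vehicle 2 and 0.139 in KO IMQ 2. Ranked by ribosomal protein share and by slope, the 10 ganglion libraries took the same place in 6 cases and places 1 apart in the other 4. In both culture tables the places also differed by at most 1. The length taken was that of the longest transcript among those of best principal rank in the annotation. By this measure the median transcript of a member is 882 bases long, and 8.85% of protein-coding genes have a shorter one. Some members are long by it (5179 bases for Rps15a, 3706 for Rps20). Levels per kilobase and length classes rest on this choice, and the length of the mRNA present was not measured. Slopes on union exon length, computed as well, were −0.153 in KO vehicle 1 and 0.114 in KO IMQ 2. KO vehicle 1 also had the highest sums of erythroid markers (464.7 CPM, range of the other KO and WT ganglion libraries 20.1 to 139.2 CPM) and of neutrophil markers (256.4 CPM, the others 20.4 to 106.8 CPM), and the part of either in the ribosomal protein level was not tested. WT vehicle 1 had the highest sum of myelinating Schwann cell markers (14480 CPM, the other ganglion libraries 4898 to 9579 CPM) and of satellite glia markers (4579 CPM, the others 3148 to 4472 CPM), and their part was not tested either. In bulk tissue a change in the cells present and a change in RNA per cell cannot be told apart.

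**Figure D3:**
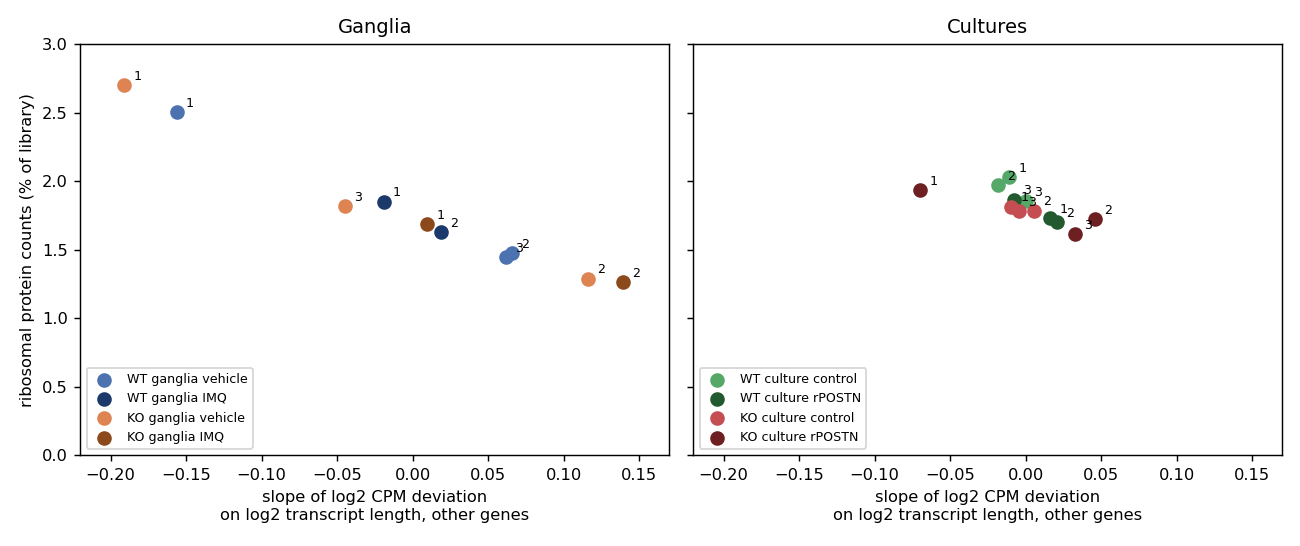
Percent of counts on ribosomal protein genes (y axis) against the slope of log2 CPM deviation on log2 transcript length over all other tested genes (x axis) in the 10 ganglion libraries (left) and the 12 culture libraries (right), coloured by group and numbered by replicate. In ganglia the share falls from 2.70% at a slope of −0.191 to 1.26% at 0.139.

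IMQ was compared with vehicle in each genotype. In WT ganglia none of the 77 members was called (edgeR FDR below 0.05, 0 at an unadjusted p under 0.05, 0 by DESeq2). Of the 17197 genes tested, 1.3% were called, 0.18% as lower, and 7.27% had an unadjusted p under 0.05 (edgeR). The median log2 fold change of the members was −0.08, against −0.01 over all genes, and 69 members were below 0. Without WT vehicle 1 the median was 0.264, so its sign rests on that library. In the same contrast the 8 myelinating Schwann cell markers, whose sum was highest in WT vehicle 1, had a median of −0.86, and 1 of the 8, Drp2, was called lower (−1.51 ± 0.17, edgeR FDR 0.00163). Rps27, a small-subunit protein with a zinc finger, was at 267.8, 125.1 and 127 CPM in vehicle and 155 and 136.1 CPM in IMQ. The IMQ values lay within the vehicle range, and its log2 fold change was −0.25 ± 0.45 (SE, FDR 1.00 by edgeR). The extremes on the other side were Rps10 (0.19 ± 0.54) and Rps2 (0.08 ± 0.24).

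In KO ganglia the same contrast again called none of the 77 members (edgeR, 0 at an unadjusted p under 0.05, 0 by DESeq2), where 1.1% of genes were called, and 0.0174% as lower. The median was −0.47, against −0.01 over all genes, and 75 members were below 0. With the gene length offset it was −0.264 by principal transcript and −0.364 by union exon length, and without KO vehicle 1 it was −0.116. With the replicate number as a block, none was called and 57 had an unadjusted p under 0.05 (edgeR). Members move together, so those 57 are not separate observations. The share of all genes under that p with the block was not computed, and without the block it was 8.39%. The 57 are therefore not read as a result about the members. Replicate numbers were not taken to pair libraries in this contrast. Rps27 was at 297, 107.7 and 167.2 CPM in KO vehicle and 142.3 and 86.4 CPM in KO IMQ. The highest IMQ library lay inside the vehicle range, and the log2 fold change was −0.74 ± 0.45 (edgeR FDR 0.64). Rpl13a, a large-subunit protein that overlaps small nucleolar RNA genes, was lowest at −0.78 ± 0.40 and Rpl38 was near it at −0.73 ± 0.46. Rps2 (−0.22 ± 0.24), Rpl3l (0.03 ± 0.79) and Rps10 (0.05 ± 0.55) were at the other end. Rps6, the target of S6 kinase, was at 381.8, 252.2 and 313.3 CPM in vehicle and 289.6 and 236.8 CPM in IMQ, with a log2 fold change of −0.26 ± 0.22. Rplp0, the base of the stalk, was at 609.4, 310.8 and 421.5 CPM in vehicle and 379.6 and 306.5 CPM in IMQ, with −0.38 ± 0.29.

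The difference between these IMQ effects (KO minus WT) called none of the 77 members (edgeR, 0 at an unadjusted p under 0.05, 0 by DESeq2). Of all genes 0% were called, and 2.12% had an unadjusted p under 0.05 (edgeR). The median was −0.40 and 76 members were below 0. It ranged from −0.751 without WT vehicle 1 to −0.0483 without KO vehicle 1, and was −0.383 without both. The lowest members were Rplp2 (−0.69 ± 0.63), Rpl37a (−0.57 ± 0.61) and Rpl13a (−0.56 ± 0.55).

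Other genes tied to protein synthesis and short transcripts are set beside the members, from lists written by function. In KO IMQ against vehicle the medians were −0.46 for 79 oxidative phosphorylation genes, −0.32 for 77 mitochondrial ribosomal protein genes, −0.17 for 25 other TOP mRNAs, −0.08 for 40 ribosome biogenesis genes and 0.04 for 24 mTOR and Myc regulators. None of these lists had a called gene in any of the 8 comparisons by edgeR. Fau and Rack1, which encode further small-subunit proteins outside the symbol rule, had −0.61 ± 0.44 and −0.28 ± 0.26 there. Macrophage markers rose in the IMQ contrasts, 8 of 10 called in each genotype, with summed levels of 116.8 to 153.1 CPM in vehicle and 441.6 to 585.3 CPM in IMQ ganglia, and their part in the ribosomal protein level was not tested.

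KO was compared with WT in ganglia of each treatment. In vehicle ganglia none of the 77 members was called (edgeR, 0 at an unadjusted p under 0.05, 0 by DESeq2). Of all genes 0.0116% were called, and 3.08% had an unadjusted p under 0.05 (edgeR). The median of the members was 0.12, with 73 members above 0. It turned to −0.232 without KO vehicle 1. In IMQ ganglia none was called (edgeR, 0 at an unadjusted p under 0.05, 0 by DESeq2). Of all genes 0.00581% were called, and 1.85% had an unadjusted p under 0.05 (edgeR). The median was −0.27 with all 77 below 0, and −0.145 with the gene length offset. It was −0.498 without KO IMQ 1 and −0.0674 without KO IMQ 2. All KO IMQ values lay below all WT IMQ values for 22 of the 77 members, as they did for 17% of all tested genes.

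Rpl29 (ENSMUSG00000048758), a basic large-subunit protein, departed most from the shared pattern, and was singled out after its values were seen. It was at 272.3, 137.3 and 141.1 CPM in WT vehicle and 179.4 and 158.1 CPM in WT IMQ. In KO vehicle it was at 155.7, 73.4 and 105.2 CPM, and in KO IMQ at 27.8 and 127.5 CPM. KO was lower in each of the 3 same-numbered vehicle pairs, though the vehicle groups overlapped, and both KO IMQ values lay below both WT IMQ values. KO IMQ 1 lay 2.04 log2 units below where the other members of that library put it, the largest such departure in the 3 tables. Against WT its log2 fold change was −0.72 ± 0.50 in vehicle (edgeR FDR 1.00) and −1.12 ± 0.61 in IMQ (edgeR FDR 1.00). With the replicate block these were −0.70 ± 0.65 and −1.08 ± 0.83 (edgeR FDR 1.00 and 0.94). In culture the order was the other way, 117.8 to 153.8 CPM in the 6 WT libraries and 157.5 to 216.6 CPM in the 6 labelled KO (187.5 to 216.6 CPM without KO control 3 and KO rPOSTN 3), which were not tested because table and genotype coincide. Rpl29 also had the largest spread within groups in ganglia (SD 0.77 log2 units), ahead of Rpl38 (0.61) and Rpl19 (0.60). Rpl22, a protein that binds other RNAs besides ribosomal RNA, had the smallest (0.21), followed by Rps6 (0.27) and Rpl15 (0.30).

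The cultures were compared with and without added periostin. In WT cultures none of the 76 members was called (edgeR, 0 by DESeq2), where 0% of genes were called, but 40 of the 76 had an unadjusted p under 0.05, against 3.97% of the 16639 genes tested. Members move together, so those 40 are not separate observations. The median was −0.15 against −0.0008 over all genes, 75 members were below 0, and every left-out library kept the median between −0.211 and −0.103. It was −0.117 with the gene length offset by principal transcript and −0.131 by union exon length. All rPOSTN values lay below all control values for 13 of 76 members and for 5.11% of genes.

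Rpl26 (ENSMUSG00000060938), a large-subunit protein near the exit tunnel, had the smallest p. It was at 284.3, 275.2 and 251.2 CPM in WT control and at 231.9, 218.1 and 246.3 CPM with rPOSTN. Every rPOSTN value lay below every control value, the closest pair being 246.3 and 251.2 CPM, and the log2 fold change was −0.22 ± 0.06 (edgeR, unadjusted p = 0.00119, FDR 1.00). With the replicate number as a block together with the gene length offset it was called (−0.18 ± 0.03, edgeR FDR 0.0452), the only call of a member under any alternative. The share of all genes called in that fit is not given here, so the call is not read as particular to Rpl26. Rplp0 was at 1089, 1093 and 1055 CPM in control and 1022, 976.5 and 986.4 CPM with rPOSTN, groups that did not overlap, and had −0.12 ± 0.04. Rpsa, the laminin receptor and small-subunit protein, was at 783.6, 778.4 and 743.1 CPM in control and 703.4, 701.1 and 707.2 CPM with rPOSTN, again without overlap. Rps2 had −0.14 ± 0.04 and Rps6 −0.11 ± 0.06. The lowest values were those of Rpl35a (−0.25 ± 0.16) and Rpl36 (−0.24 ± 0.11), and the value of Rpl13a was 0.01 ± 0.17. Replicate 3 with rPOSTN (1.87%) was above control 3 (1.85%) in share of counts.

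In KO cultures none of the 77 members was called (edgeR, 0 by DESeq2), where 0% of genes were called. An unadjusted p under 0.05 (edgeR) was found for 1 member and for 0.925% of genes. The median was −0.02 with 48 members below 0, and 0.0526 without KO control 3 and KO rPOSTN 3. Rps10 (−0.41 ± 0.35), Rpl13a (−0.29 ± 0.28) and Rps21 (−0.26 ± 0.14) were lowest. Without those 2 libraries their values were −0.82 ± 0.37, −0.42 ± 0.37 and −0.25 ± 0.15, none called (edgeR FDR 1.00). The interaction over both genotypes called none of the 77 members (edgeR, 1 at an unadjusted p under 0.05, 0 by DESeq2). Of all genes 0% were called, and 1.95% had an unadjusted p under 0.05 (edgeR). The median of the members was 0.13, with 67 members above 0. Without KO control 3 and KO rPOSTN 3 the median was 0.199. The rPOSTN effects in WT and KO were therefore not shown to differ for any member.

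**Figure D4:**
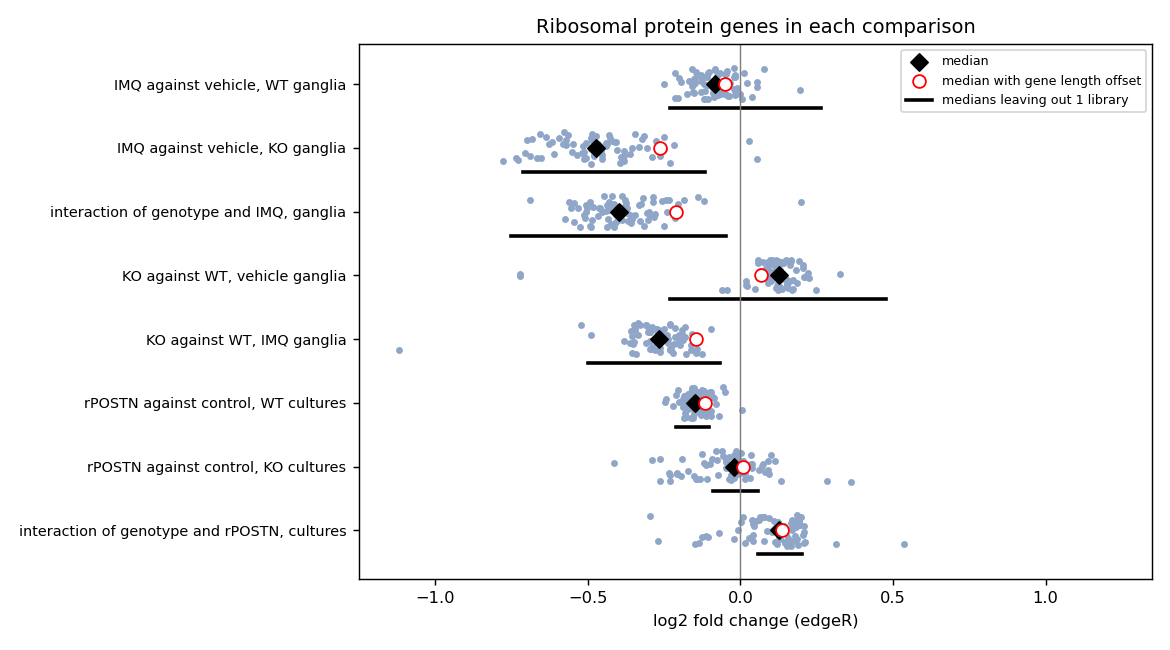
log2 fold change of every tested member (blue points) in the 8 comparisons, with the median (black diamond), the median with the gene length offset by principal transcript (red circle) and the range of medians when 1 library is left out (black line). In the WT IMQ, the KO against WT vehicle and the KO culture rPOSTN comparisons the line crosses 0 (in the last from −0.0909 to 0.0591), and in WT cultures it stays between −0.211 and −0.103.

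Levels in culture and in ganglia differed for many members, described without a test because each comes from its own table. The part of the cells present in these differences was not tested. Over the 69 members with less than 10% of exon length overlapped by a gene on the opposite strand, the median log2 ratio of WT cultures to ganglia was −0.03, from −1.66 for Rps29 to 1.33 for Rps2. Rplp0 was at a mean of 413.3 CPM in ganglia, 1037 CPM in WT cultures and 883 CPM in KO cultures. Rps27 was at a mean of 161.1 CPM in ganglia, 64.2 CPM in WT cultures and 47.8 CPM in KO cultures. The 18 members of up to 600 bases had a median of −0.67 in WT and −1.01 in KO cultures, the 30 above 600 and up to 1000 bases 0.02 and −0.06, and the 28 above 1000 bases 0.03 and 0.00. Without KO control 3 and KO rPOSTN 3 the 3 KO medians were −0.96, −0.01 and 0.04, and the KO means were 895 CPM for Rplp0 and 49.5 CPM for Rps27.

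Rpl23a, Rpl35 and Rpl30 were much lower in culture than others of their length, and were singled out after their values were seen. Rpl23a was at 267.7 to 597.1 CPM in ganglia and 5.58 to 11.5 CPM in the 12 culture libraries, Rpl35 at 128.4 to 351.1 CPM and 9.0 to 16.96 CPM, and Rpl30 at 109.4 to 248.9 CPM and 32.4 to 49.8 CPM. Their exons overlap a gene on the opposite strand over 59.7% (Tlcd1), 66.2% (Arpc5l and Wdr38) and 20.4% (D730044K07Rik) of their length, while Rpl5 with 24.3% was at 0.41 in WT cultures against ganglia. Over other protein-coding genes the median log2 ratio of WT cultures to ganglia was 0.20 with no opposite-strand overlap (10041 genes) and −4.38 above 75% (28 genes), and 0.20 above 75% of same-strand overlap (10 genes). In KO cultures the same values were 0.27, −4.57 and −0.52. Rps27rt and Rpl22l1, ribosomal genes outside the symbol rule, were also lower in culture, with 0% and 7.99% opposite-strand overlap. Group means of Rps27rt were 7.86 to 18.7 CPM in ganglia and 0.510 to 0.680 CPM in cultures. Those of Rpl22l1 were 70.6 to 98.9 CPM and 5.75 to 7.22 CPM. Fau (0%) and Rack1 (0.61%) went the other way. How strand was handled when reads were counted is not given in the sources used here. Whether the tables were counted alike was not tested, and the levels of Rpl23a, Rpl35 and Rpl30 in culture cannot be told apart from such a difference.

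**Figure D5:**
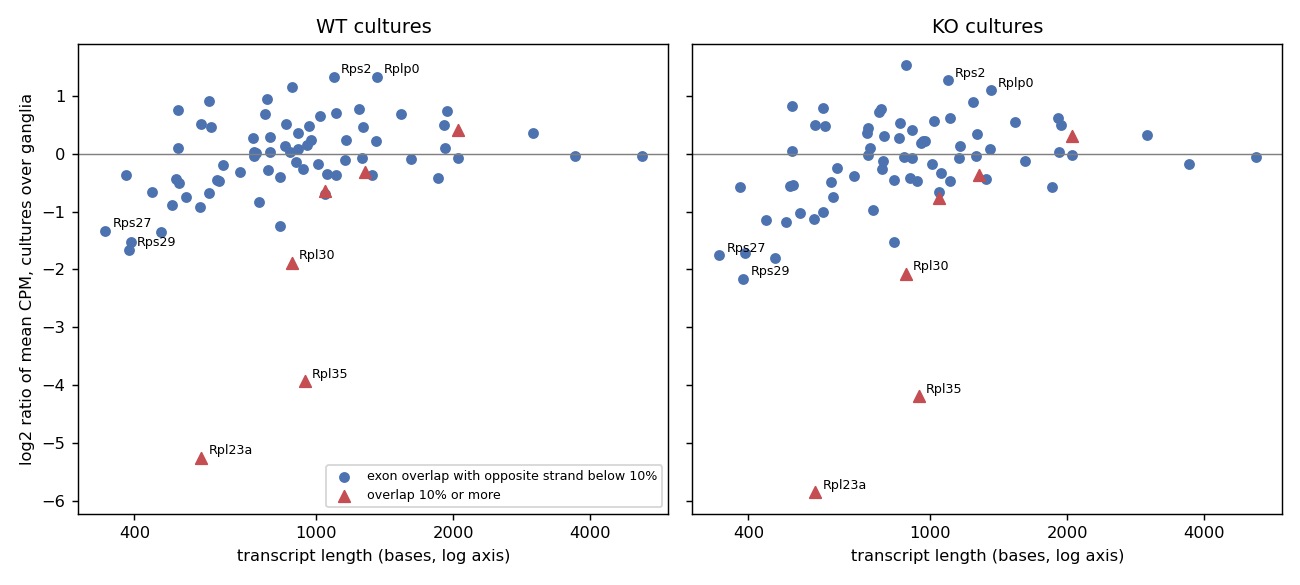
log2 ratio of mean CPM in WT (left) and KO (right) cultures to ganglia (y axis) against transcript length on a log axis (x axis) for 75 of the 76 members. Red triangles are the 6 of them with at least 10% of exon length overlapped on the opposite strand, among them Rpl23a and Rpl35 at the bottom, and Rps27 and Rps29 mark the low short members.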

How the data were processed

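The values are unnormalized counts by Ensembl gene in 3 tables that the authors deposited. Per the labels' protocols, mRNA was selected by poly-A and the second strand was marked with dUTP before paired sequencing. GRCm39, TopHat2, Bowtie2 2.2.3 and HISAT2 2.1.0 appear in the submitters' processing notes, without a role. Not given in the sources used here are the counter, its strand setting and the annotation. Symbols, biotypes, transcript lengths and exon overlaps came from GENCODE M21, which rests on GRCm38 (55227 of 55487 genes had a symbol).

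CPM used TMM-scaled library sizes within a table. The test was edgeR's quasi-likelihood test (version 4.0.16; filterByExpr, TMM, robust, two-sided) with Benjamini-Hochberg adjustment over all genes, called at an FDR below 0.05, in R 4.3.3 (limma 3.58.1) and Python 3.11.15. SE is the size of a fold change divided by the root of F. The 10 ganglion libraries shared 1 fit, WT and KO cultures were fitted apart, and the culture interaction used 12. Alternatives were DESeq2 1.42.0, RLE scaling, scaling without members, no filter, a gene length offset (the per-library trend on length over other genes), the replicate block, and leaving out libraries. The scripts were tested on simulated data.

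The members, lists and tests were chosen with earlier results of these data known. Length slopes were computed from 2 measures, principal transcript and union exon length, and seen for both before the first was kept; both are reported. Length and overlap bins, 16 promoter searches and the left-out pairs of libraries were also set with values in view. Genes were named if called, if among the 3 highest or lowest fold changes of a comparison, by role, or by level and spread; Rpl29, Rpl26, Rpl23a, Rpl35 and Rpl30 were partly singled out from their values. The values of 1 member are not reported here, though counts and medians over the members include it.

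The replicate numbers are from the labels, which do not say what they share. Deviations of same-numbered libraries correlated at 0.367, 0.373 and 0.672 in WT cultures, 0.387, 0.713 and 0.635 in KO cultures, and 0.868, 0.808 and 0.155 between WT and KO vehicle ganglia, so numbers were taken to pair libraries there. The contrasts with IMQ have 2 pairs each, fewer than the 3 required to take numbers as pairing. Their correlations were 0.751 and 0.753 (KO vehicle and IMQ), 0.239 and 0.221 (WT vehicle and IMQ) and 0.0471 in both pairs of WT and KO IMQ. Deviations are from the group mean, so the 2 libraries of an IMQ group mirror each other. The value for WT and KO IMQ is therefore 1 value, equal in both pairs by construction. The 2 values of each vehicle and IMQ contrast are not separate observations either.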

Additional observations from a re-analysis of the deposited data

How the results depend on the processing

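Of 258 alternative values, 257 were either the same count of members called or a median that moved by less than the SD of library medians within groups, an SD that is wide in ganglia. The exception was in WT cultures with rPOSTN, where the replicate block with the gene length offset called 1 member (Rpl26) in place of 0. The share of all genes called in that fit is not given here. The replicate block alone changed no call of a member. In KO IMQ ganglia the block left 0 members called, with 57 at an unadjusted p under 0.05 (47 with the offset too), where edgeR without it had 0. The share of all genes under that p in these blocked fits was not computed. No member was called with any 1 library left out, and medians then ranged from −0.231 to 0.264 (IMQ, WT), −0.712 to −0.116 (IMQ, KO), −0.751 to −0.0483 (interaction), −0.232 to 0.477 (KO against WT, vehicle), −0.498 to −0.0674 (KO against WT, IMQ), −0.211 to −0.103 (rPOSTN, WT), −0.0909 to 0.0591 (rPOSTN, KO) and 0.0591 to 0.201 (culture interaction). The sign thus turned in the WT IMQ contrast, in vehicle KO against WT and in the KO rPOSTN contrast. Without WT vehicle 1 and KO vehicle 1, an alternative chosen after seeing the data, the 5 ganglion medians were 0.257, −0.109, −0.383, 0.109 and −0.263. Shares varied 2.14-fold between ganglion libraries and 1.19- to 1.20-fold between culture libraries.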
